A study of Mus musculus with 7 samples.

Results

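Chemokine ligands are small secreted or membrane-anchored proteins that set the direction in which leukocytes move. Here they comprise every protein-coding gene of the deposited table whose symbol starts with Ccl, Cxcl, Xcl or Cx3cl followed by a digit, which gave 44 genes of 55536 in the table (21963 of them protein coding). Of the 44, 37 lie on named chromosomes and 7 on unplaced scaffolds of the assembly. They were followed in RNA of freshly sorted EPCAM-positive medullary thymic epithelial cells (mTECs) from mouse thymus. The 7 libraries fall into 4 that are Cre-negative (labelled 46, 48, 75 and 77) and 3 that are Cre-positive (45, 76 and 80). Both groups carry 2 loxP-flanked alleles of Ikzf1 (Ikzf1fl/fl), which encodes Ikaros, a zinc-finger transcription factor, and both lack Pou2f3, the factor that tuft cells need (Pou2f3-/-). By the labels the Cre-negative controls are thus themselves Pou2f3-null, and the groups differ in Cre. The sources used here do not name the Cre driver, the floxed exon or the age of the animals. Nor do they say whether each label number is a separate animal, and p-values therefore measure a spread between libraries that may be technical. The study states that it asks how Ikaros acts on mTEC gene expression when tuft cells are missing.

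Chemokines are grouped by the spacing of their first cysteines into CC, CXC, XC and CX3C ligands, and each acts through one or a few G-protein-coupled receptors on the responding cell. In the thymus, ligands of CCR7, CCR9 and CXCR4 guide progenitors and developing thymocytes, and mTECs also make ligands that draw dendritic cells and regulatory T cells to the medulla, where self-antigen is shown to maturing T cells. Interferon-induced ligands of CXCR3 and neutrophil-attracting ligands of CXCR2 are made by many epithelia in response to cytokines.

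The controls held 9815958 to 12599078 recovered reads and the Cre-positive libraries 11383465 to 11623062. At these totals the controls had 19417 to 20467 genes with 10 reads or more and the Cre-positive libraries 17169 to 18014, without overlap, and the part of this difference in the ligands called lower was not tested. Normalized counts are the authors' read counts divided by a size factor per library, and CPM are recovered reads scaled to the library total. Epcam, the gene of the sorted surface protein, had 3882.7 to 5098.5 normalized counts in the controls against 5597.9 to 6771.2 in Cre-positive libraries. Ikzf1 itself had 1118.7 to 1219.0 against 1310.3 to 1828.6 normalized counts, a sum over the whole gene that cannot show the deletion of an exon. Pou2f3 had 1.8 to 27.9 normalized counts in the controls against 0.0 to 17.8, and such a sum over the gene does not check its deletion either. Markers of other cells were read too: a list of 14 dendritic cell and macrophage genes summed to 827 to 909 CPM in the controls against 779 to 1012 in Cre-positive libraries, and 14 T lineage genes to 131 to 255 and 108 to 421. These are bulk libraries, so fewer cells of a type and less RNA per cell cannot be told apart. Of 8 epithelial identity genes, Foxn1 and Cldn4 were called lower and 0 higher (7154 to 11077 against 6801 to 9007 CPM in sum). Of 9 tested tuft genes 1 was called (Ltc4s, higher), while 5 had a log2 fold change above 0 and 4 below it. The tuft list of 10 genes summed to 47.9 to 74.5 CPM in the controls against 76.4 to 118 in Cre-positive libraries. Beside these counts, 4.66% of all tested genes were called higher and 9.11% lower. Cre-negative 48 alone had Y-linked reads (3938 normalized counts over 4 genes).

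Of the 44 ligand genes, 33 averaged 5 normalized counts or more and were tested. With limma across all 22878 genes that passed the same filter, and a call at a Benjamini-Hochberg adjusted p under 0.05, 4 of the 33 were higher in Cre-positive libraries (Ccl19, Cxcl1, Cxcl9 and Ccl3) and 12 were lower (Ccl25, Ccl8, Ccl2, Ccl1, Ccl22, Ccl7, Cxcl3, Xcl1, Cxcl17, Cx3cl1, Ccl28 and Cxcl15). Over all tested genes 4.66% were called higher and 9.11% lower, 13.8% in either direction. The share of ligands called lower was above that background, while 4 called higher are few to set against it. On recovered reads, edgeR called 3 ligands higher and 9 lower, beside 5.06% and 8.68% of the genes it tested, and DESeq2 called 5 and 11, beside 6.34% and 12.1%. The median log2 fold change, as log2 of (normalized count + 1) in Cre-positive minus Cre-negative, was -0.85 over the 33 ligands and -0.10 over all tested genes, and 10 ligands had a value above and 23 a value below 0. Every Cre-positive library lay above all Cre-negative ones for 4 ligands and below them for 12, against 10.8% and 14.5% of all tested genes. Cxcl14 was below without a call (adjusted p = 0.375), and Ccl22 was called although its libraries overlapped.

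**Figure D1:**
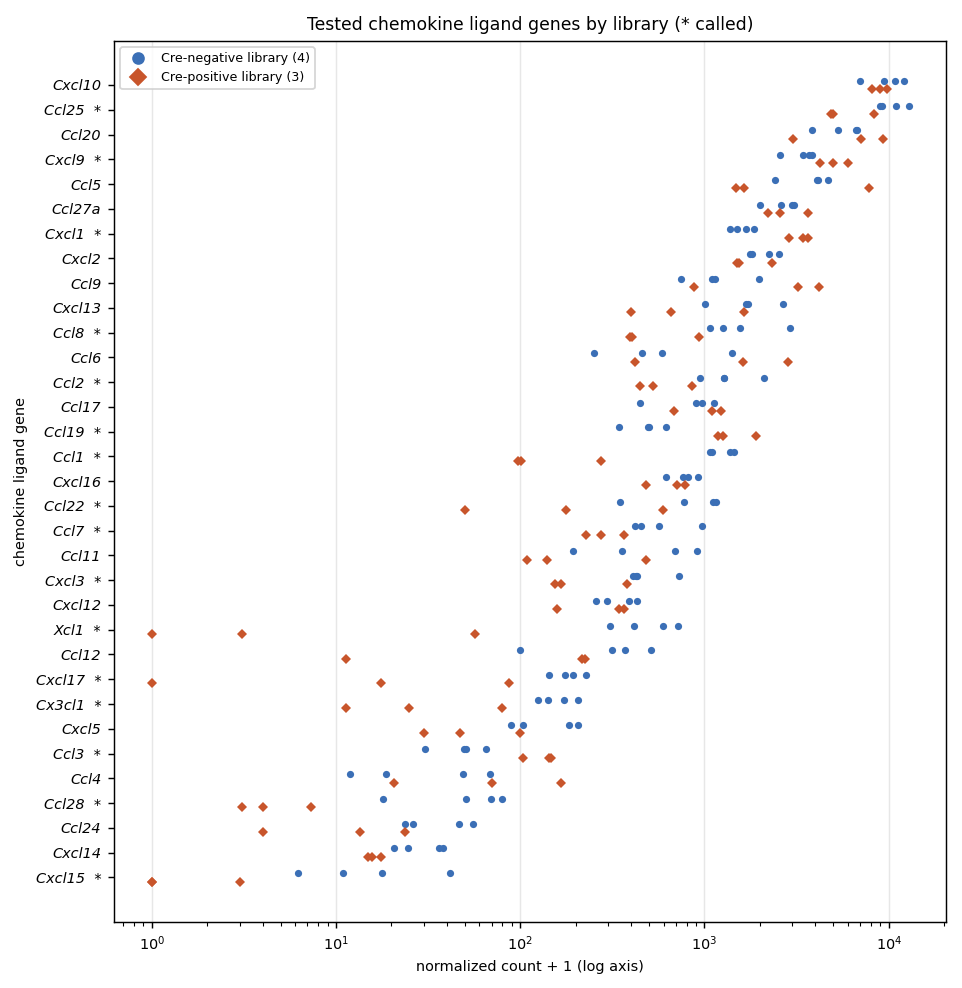
Normalized count + 1 (log axis) of the 33 tested ligand genes in the 4 Cre-negative (circles) and 3 Cre-positive libraries (diamonds), ordered by mean, with called genes starred. The levels span from Cxcl10, at 6973.8 to 12084.9, to Cxcl15, at 0.0 to 40.4, and the lowest limma log2 fold change is that of Xcl1, at 306.0 to 715.7 against 0.0 to 56.1.

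The remaining 11 ligand genes gave little or nothing to compare. Ccl26 was read only in Cre-negative 75 (0.9 normalized counts) and Ccl27b only in Cre-positive 76 (1.0). The other 9 were listed at 0 in all 7 libraries: 6 Ccl21 genes (2 named Ccl21a, 3 Ccl21b and 1 Ccl21c) and scaffold copies of Ccl27a (2) and Ccl19 (1). Ccl21a, a CCR7 ligand made by thymic medullary epithelium, has a transcript in which 71.6% of all 50-base stretches also occur in other annotated genes (Ccl21b, Gm10591, Gm13304 and Gm21541), and for Ccl21b the share is 100%. How the authors counted such reads is not stated in the labels, so a listing at 0 does not show that these genes were silent.

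Sequence upstream of the ligands is shown for genes that hold the same letters and yet differed in their calls, and for Ccl1, the ligand with the smallest adjusted p. All come from RefSeq on GRCm38.p6, where 24 of the 33 tested members had an entry of 300 bases (250 before to 50 after the start site), and both strands were searched for the NF-kB consensus called kB, for GAAA followed by any 2 bases and GAAA (paired interferon-response half-sites), and for TGGGAA (a form of the Ikaros core). Capitals mark every match. The first 3 lines run from 130 to 31 bases before the start site of Cxcl1 (chr5:90891115-90891214, plus strand), Cxcl2 (chr5:90903769-90903868, plus strand) and Cxcl3 (chr5:90785971-90786070, plus strand), and the next pair from 230 to 141 bases before that of Ccl19 (chr4:42756506-42756595, minus strand) and Cxcl10 (chr5:92349030-92349119, minus strand). The last is Ccl1 from 210 to 31 bases before its RefSeq start site (chr11:82179843-82180022, minus strand).
Cxcl1: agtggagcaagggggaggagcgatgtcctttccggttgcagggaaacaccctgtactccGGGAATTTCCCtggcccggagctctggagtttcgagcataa
Cxcl2: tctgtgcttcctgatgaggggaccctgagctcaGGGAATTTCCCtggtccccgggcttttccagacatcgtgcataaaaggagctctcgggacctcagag
Cxcl3: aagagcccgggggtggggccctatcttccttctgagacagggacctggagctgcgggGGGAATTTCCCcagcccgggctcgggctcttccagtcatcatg
Ccl19: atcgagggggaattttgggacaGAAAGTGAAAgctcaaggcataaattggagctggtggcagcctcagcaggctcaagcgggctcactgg
Cxcl10: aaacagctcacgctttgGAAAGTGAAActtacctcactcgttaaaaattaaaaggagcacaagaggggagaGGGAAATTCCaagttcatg
Ccl1: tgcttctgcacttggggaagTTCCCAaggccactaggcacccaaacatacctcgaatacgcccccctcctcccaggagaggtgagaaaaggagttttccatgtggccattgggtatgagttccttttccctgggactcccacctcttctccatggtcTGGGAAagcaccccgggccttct

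Cxcl1, Cxcl2 and Cxcl3 all hold the kB match GGGAATTTCC, starting 71, 97 and 73 bases before the start site, and each match is also read on the other strand 1 base further on. The kB consensus occurred in 4.51% of all 32851 promoters of the table, the paired half-sites in 3.44% and TGGGAA in 25.6%, and no matches of different motifs overlapped. Ccl19 and Cxcl10 share GAAAGTGAAA, at 208 and 213 bases before the start site. The kB consensus was in 1 of 4 members called higher, 1 of 9 called lower and 4 of 11 not called, and the paired half-sites in 1, 0 and 2. Ccl1 holds TGGGAA 53 bases before the start site and on the other strand 190 bases before it. TGGGAA was found in 0 of 4 members called higher, 3 of 9 called lower and 5 of 11 not called. These matches are descriptions of letters and do not show that a factor binds there.

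**Figure D2:**
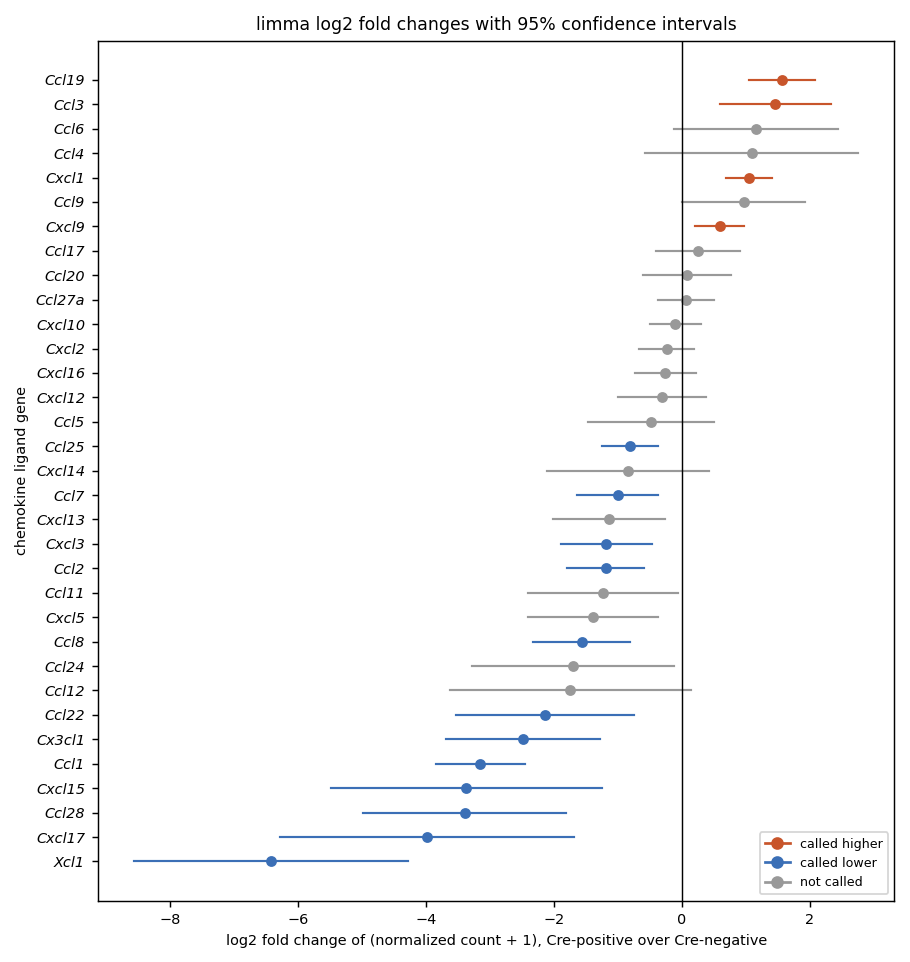
Log2 fold changes of (normalized count + 1), Cre-positive over Cre-negative, with 95% confidence intervals from limma, for the 33 tested ligands, coloured by call. They run from 1.56 for Ccl19 to -6.42 for Xcl1, and most points lie left of 0.

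Of the 4 lymphoid homing ligands tested, Ccl19 rose, Ccl25 fell, and Cxcl13 and Cxcl12 did not pass. Ccl19 (chr4:42754525-42756577, minus strand), a CCR7 ligand that guides thymocytes towards the medulla, had 621.0, 340.8, 496.4 and 494.2 normalized counts in the controls 46, 48, 75 and 77, against 1894.5, 1177.7 and 1258.1 in Cre-positive 45, 76 and 80. Every Cre-positive library was well above every Cre-negative one, and Cre-positive 45 was the highest. Ccl19 rose 2.96-fold between the means (log2 fold change 1.56, 95% interval 1.04 to 2.08, limma adjusted p = 0.00125). Of the 50-base stretches of its transcript 59.1% also occur in other genes, among them the pseudogene Ccl19-ps1, whose reads may be shared with it. Ccl19 and Ccl19-ps1 summed gave 824 ± 183 in the controls (SD, n = 4) against 2050 ± 591 in Cre-positive libraries (SD, n = 3), a 2.49-fold difference.

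Ccl25 (chr8:4325210-4360020, plus strand), the ligand of CCR9 that draws progenitors into the thymus, fell. It had 9221.5, 12816.8, 10925.5 and 8951.4 normalized counts in the controls 46, 48, 75 and 77, against 8343.8, 4886.9 and 4997.1 in Cre-positive 45, 76 and 80. Cre-positive 45 came close to the lowest Cre-negative library, and the other 2 were far below it. The log2 fold change was -0.82 (SE 0.20, limma adjusted p = 0.0185), and it was no longer called without Cre-positive 76 (0.0802) or 80 (0.0672). An exon of Ccl25 overlaps one of Elavl1 on the other strand, and whether reads were counted by strand is not known. Ccl25 and Cxcl12 are also made by cortical epithelium. Of 7 cortical genes, Ctsl was called higher and Cd83 and Dll4 lower, beside 4.66% and 9.11% of all tested genes. The 7 genes summed to 1481 to 2154 CPM in the controls against 1854 to 2551 in Cre-positive libraries. Yet 5 of them had a log2 fold change below 0 and 2 above it, so the sum does not stand for most of the list. Their part in the values of Ccl25 and Cxcl12 was not tested. Elavl1 had 1274 to 1507 normalized counts in the controls against 1171 to 1306 in Cre-positive libraries (adjusted p = 0.607).

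Cxcl13, the B cell attractant that binds CXCR5, had 1011.6 to 2669.5 normalized counts in the controls against 657.3, 400.6 and 1644.3 in Cre-positive 45, 76 and 80. Cre-positive 80 lay within the Cre-negative range, and the difference did not pass (log2 fold change -1.14, limma adjusted p = 0.0802). Cxcl12, the CXCR4 ligand that holds early thymocytes and progenitors, had 257.6 to 430.1 against 156.7 to 365.7 (log2 fold change -0.31, SE 0.32, limma adjusted p = 0.563). The log2 ratio of Ccl19 to Ccl25 within a library was -4.44 ± 0.58 in the controls (SD, n = 4) against -2.06 ± 0.075 in Cre-positive libraries (SD, n = 3). It is 1 of 4 such ratios between pairs of ligands, all chosen with the levels known and given as descriptions. Each of the 4 had a two-sided exact permutation p of 0.0571, which carries no weight because the pairs were chosen from the levels. Of 7 listed genes of immature mTECs, 3 were called higher (Krt14, Krt5 and Trp63) and 0 lower, beside 4.66% and 9.11% of all tested genes. In 2 of the 7 the log2 fold change was below 0, without a call. The 7 genes summed to 730.1 to 920.6 CPM in the controls against 1050.4 to 1175 in Cre-positive libraries. Their part in the rise of Ccl19 was not tested.

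Of the ligands for dendritic cells and regulatory T cells, Xcl1, Ccl1 and Ccl22 fell, and Ccl17 and Ccl20 did not pass. Xcl1 (chr1:164931644-164935527, minus strand), the ligand of XCR1 on cross-presenting dendritic cells, had 715.7, 411.7, 591.0 and 306.0 normalized counts in the controls 46, 48, 75 and 77, against 2.1, 56.1 and 0.0 in Cre-positive 45, 76 and 80. Cre-positive 80 held no Xcl1 read, which allows up to 3.11 normalized counts, and the highest Cre-positive library was far below the lowest control. The means differed 26.1-fold (506 ± 183 against 19.4 ± 31.8, SD), with a limma adjusted p of 0.00130. The fitted log2 fold change of -6.42 was -8.10 without Cre-positive 76 and -5.18 without 80, and Xcl1 stayed called in both. In edgeR it was -4.66 and in DESeq2 -4.71. Xcl1 also overlaps an exon of Gm20743, which shares 10.8% of its 50-base stretches.

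Ccl1 (chr11:82176657-82305690, minus strand), the ligand of CCR8 on regulatory T cells, had 1102.0, 1068.7, 1438.7 and 1368.9 normalized counts in the controls 46, 48, 75 and 77. In Cre-positive 45, 76 and 80 it had 273.8, 96.1 and 99.7. The groups were far apart, with Cre-positive 45 the highest of the 3. Ccl1 fell 7.95-fold between means (log2 fold change -3.15, 95% interval -3.85 to -2.45, limma adjusted p = 9.79e-05), the smallest adjusted p among the ligands. The annotated gene extends 125878 bases upstream of the RefSeq start site, so its count may include reads from outside the usual transcript.

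Ccl22 (chr8:94745590-94751699, plus strand) and Ccl17 both bind CCR4 and lie on the same chromosome, yet they differed. Ccl22 had 1159.8, 1109.1, 770.2 and 348.4 normalized counts in the controls 46, 48, 75 and 77, against 595.6, 49.1 and 176.5 in Cre-positive 45, 76 and 80. Cre-positive 45 stood within the Cre-negative range and the other 2 below it. The fall passed in limma (log2 fold change -2.14, adjusted p = 0.0430) but not in edgeR (0.114) or DESeq2 (0.194). It was also lost on leaving out control 46 (0.111), 48 (0.112) or 75 (0.0781), or Cre-positive 76 (0.149) or 80 (0.0863), and was -3.03 on the log2 scale without Cre-positive 45.

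Ccl17 had 903.4, 967.3, 1131.5 and 447.7 in the controls against 1235.1, 682.0 and 1096.2 in Cre-positive libraries. Those ranges overlapped almost wholly (log2 fold change 0.26, 95% interval -0.40 to 0.91). The log2 ratio of Ccl17 to Ccl22 was 0.089 ± 0.44 in the controls against 2.48 ± 1.36 in Cre-positive libraries (SD, n = 4 and 3). Ccl20, the CCR6 ligand that draws dendritic cells and B cells and a product of microfold-type epithelium, was among the most abundant ligands, at 5290.4, 6724.6, 6649.2 and 3854.3 against 3007.3, 9289.1 and 7049.3. Its lowest and its highest library were both Cre-positive, and the log2 fold change was 0.08 (95% interval -0.60 to 0.77).

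Marker lists that moved with these losses are given beside them. Of 9 Aire-stage mTEC genes, 5 were called lower (Aire, Hdc, Cd80, Cd274 and Cd86) and 0 higher. In 3 of the 9 the log2 fold change was above 0, without a call. The 9 genes summed to 1706 to 2043 CPM in the controls against at most 1262 in Cre-positive libraries. Of the 8 listed NK and innate lymphoid genes, of which 6 were tested, Gzmb and Eomes were called lower. That list summed to 33.7 to 51.8 against 6.02 to 26.4 CPM, and its defining genes Ncr1 and Klrb1c had 0.0 to 2.0 normalized counts in Cre-negative libraries and 0.0 to 23.0 in Cre-positive ones. Beside the counts of both lists, 9.11% of all tested genes were called lower and 4.66% higher. The part of the cells of either list in the fall of Xcl1, Ccl1 and Ccl22 was not tested.

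**Figure D3:**
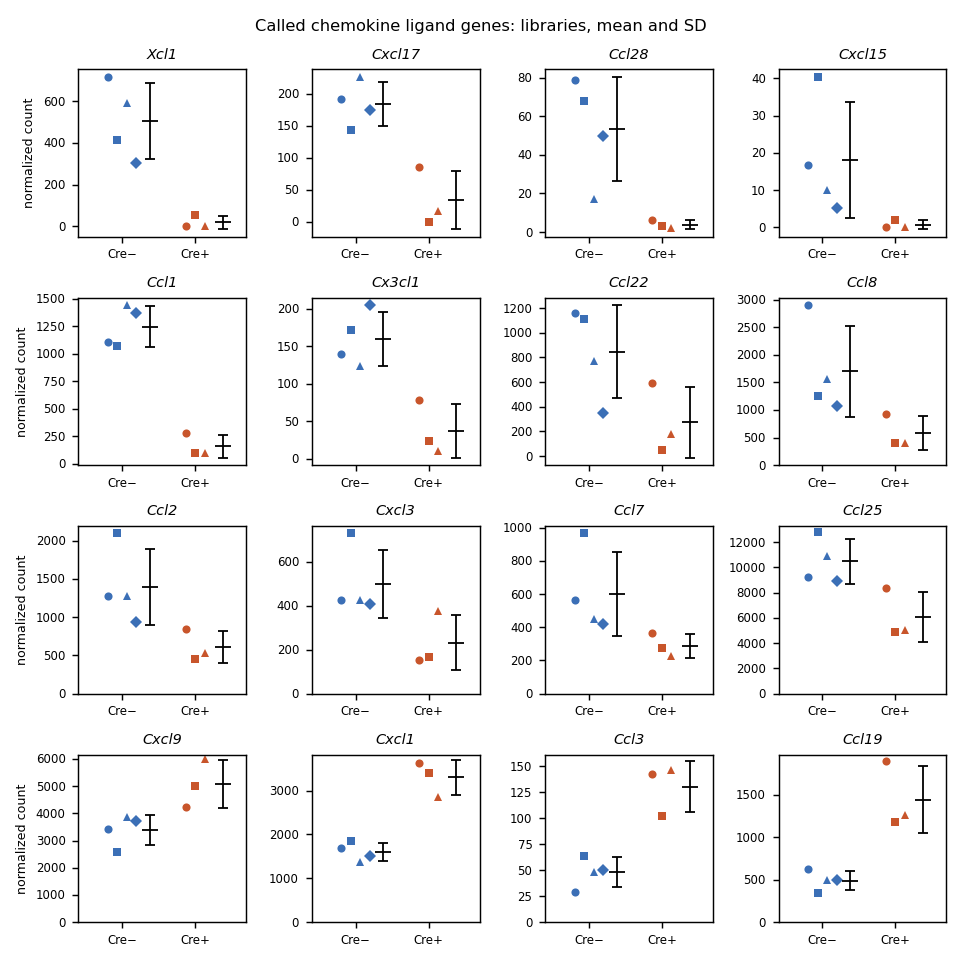
Normalized counts of the 16 called ligands by library (Cre-negative 46, 48, 75 and 77 as circle, square, triangle and diamond; Cre-positive 45, 76 and 80 as circle, square and triangle), with the group mean and SD in black. Ccl22 is the 1 panel in which the groups overlap, at 348.4 to 1159.8 against 49.1 to 595.6.

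Of the interferon-induced CXCR3 ligands, Cxcl9 rose and Cxcl10 did not pass. Cxcl9 (chr5:92321347-92328079, minus strand) had 3404.9, 2584.6, 3851.1 and 3702.3 normalized counts in the controls 46, 48, 75 and 77, against 4243.5, 4999.1 and 5984.3 in Cre-positive 45, 76 and 80. The groups did not overlap, though the gap between them was small. The log2 fold change was 0.59 with a limma adjusted p of 0.0458, close to the threshold, 0.0517 in edgeR and 0.143 with library total scaling. The call was lost on leaving out control 46 (0.0907), 48 (0.0774) or 77 (0.0669), or Cre-positive 76 (0.105) or 80 (0.160), with the log2 fold change between 0.46 and 0.63 without each of these 5 libraries.

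Cxcl10, the ligand with the highest mean of all, had 9403.4, 6973.8, 12084.9 and 10758.6 in the controls against 8099.3, 8949.7 and 9832.3 in Cre-positive libraries. All 3 Cre-positive values fell inside the Cre-negative range (log2 fold change -0.11, 95% interval -0.50 to 0.29). Cxcl11, which also binds CXCR3, is annotated as a polymorphic pseudogene in the table and so is not among the 44; it had 1279.5 to 2486.5 against 2283.2 to 2428.4 (adjusted p = 0.486). The log2 ratio of Cxcl9 to Cxcl10 was -1.52 ± 0.097 in the controls against -0.83 ± 0.11 in Cre-positive libraries (SD, n = 4 and 3). Of 20 other interferon-gamma response genes listed, 0 were called higher and 3 lower: Gbp4, Igtp and Gbp2. Beside these counts, 4.66% of all tested genes were called higher and 9.11% lower, and the part of interferon-gamma in the values of Cxcl9 was not tested.

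The CXCR2 ligands, which draw neutrophils, lie side by side on chromosome 5 and did not move as one. Cxcl1 (chr5:90891241-90893115, plus strand) had 1686.1, 1853.8, 1368.4 and 1504.3 normalized counts in the controls 46, 48, 75 and 77, against 3637.4, 3410.8 and 2861.9 in Cre-positive 45, 76 and 80. All Cre-positive libraries were far above the Cre-negative ones, with little spread in either group. Cxcl1 rose 2.06-fold (log2 fold change 1.04, SE 0.17, limma adjusted p = 0.00146).

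Cxcl3 (chr5:90786103-90789600, plus strand) had 427.4, 728.9, 426.1 and 408.4 in the controls against 152.6, 166.2 and 376.8 in Cre-positive libraries. Cre-positive 80 came close to the lower Cre-negative libraries, and Cre-negative 48 stood well above the other 3. Its log2 fold change was -1.18 (limma adjusted p = 0.0313, edgeR 0.0569). The adjusted p was 0.0868 without Cre-negative 48, 0.0599 without 46, 0.116 without Cre-positive 45 and 0.106 without 76.

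Cxcl2, next to Cxcl1, had 1773.1 to 2538.3 against 1500.0 to 2330.2 and did not pass (log2 fold change -0.24, 95% interval -0.67 to 0.19). The 3 genes that share the kB match shown above thus gave a called rise, a called fall and a value that was not called. The log2 ratio of Cxcl1 to Cxcl3 went from 1.72 ± 0.28 to 3.95 ± 0.89 (SD, n = 4 and 3). Cxcl2 and Cxcl3 share 5.35% and 3.94% of their 50-base stretches with other genes, including each other, and Cxcl1 shares none.

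Cxcl5 had 88.3 to 203.9 normalized counts in the controls against 29.0 to 98.6 in Cre-positive libraries (log2 fold change -1.40, limma adjusted p = 0.0670). Cxcl15, known as lungkine from lung epithelium, had only 77 reads in the Cre-negative and 2 in the Cre-positive group. It had 16.8, 40.4, 9.9 and 5.2 against 0.0, 2.0 and 0.0 normalized counts. The ratio of its summed reads, each group divided by its summed depth from the size factors, was 26.2, with an exact interval of 7.02 to 220 that covers counting error only. Its call (limma adjusted p = 0.0377) rests on few reads and was lost with a pseudocount of 5 (0.0581). So it was on leaving out control 46 (0.0924), 48 (0.110) or 75 (0.0576), or Cre-positive 45 (0.0988) or 80 (0.101).

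The inflammatory CC ligands split as well. Ccl2 (chr11:82035571-82037453, plus strand) and Ccl7, ligands of CCR2 on monocytes, fell, and so did their neighbour Ccl8, which in mouse acts on CCR8, the receptor also used by Ccl1. Ccl2 had 1278.0, 2103.0, 1274.7 and 939.8 normalized counts in the controls against 849.5, 447.6 and 527.3 in Cre-positive libraries (log2 fold change -1.19, limma adjusted p = 0.0135). Ccl8 (chr11:82115185-82116799, plus strand) had 2902.0, 1260.8, 1557.6 and 1073.2 against 934.2, 395.6 and 402.8 (-1.57, adjusted p = 0.0110). In both genes Cre-positive 45 was the highest of its group and still below every Cre-negative library.

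Ccl7 (chr11:82045712-82047525, plus strand) had 418.7 to 971.2 against 225.3 to 363.6 (log2 fold change -1.01, limma adjusted p = 0.0392). Ccl11, the eotaxin of the same cluster, had 193.1 to 915.3 against 108.0 to 480.7 and Ccl12 had 98.2 to 508.7 against 10.4 to 224.7. Neither passed (adjusted p = 0.157 and 0.209), although both fitted values were negative. Ccl11 was called lower with a term for the label number range and without Cre-positive 76. Ccl24, a further eotaxin, had 22.7 to 54.1 against 3.0 to 22.8 normalized counts (adjusted p = 0.144). Without Cre-positive 76 the adjusted p of Ccl2 was 0.0589, and that of Ccl7 was above the threshold without any one of Cre-negative 46 (0.0851) or 48 (0.0845), or Cre-positive 76 (0.0945) or 80 (0.121).

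Ccl3 (chr11:83647844-83649355, minus strand), a ligand of CCR1, rose from a low level. It had 29.3, 64.0, 48.6 and 49.6 normalized counts in the controls against 142.1, 102.1 and 146.4 in Cre-positive libraries. The groups were apart (log2 fold change 1.46, 95% interval 0.59 to 2.32, limma adjusted p = 0.0294). The call was lost with library total scaling (0.0575) and on leaving out control 46 (0.0743) or 77 (0.0522), or Cre-positive 45 (0.0899) or 80 (0.0872). Its neighbour Ccl4 had 10.9 to 67.6 against 166.1, 69.1 and 19.7, and the wide spread left no call (log2 fold change 1.09, adjusted p = 0.390).

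Markers of cells known to make such ligands are given beside them. Of 14 dendritic cell and macrophage genes, 4 were called lower (Fcer1g, Mrc1, Adgre1 and Itgam) and 1 higher (Lyz2), a list whose sums overlapped between groups, as given above. Of 9 fibroblast and pericyte genes, Col1a1, Col1a2 and Col3a1 were called lower and Rgs5 higher. Beside the counts of these 2 lists, 9.11% of all tested genes were called lower and 4.66% higher. The 9 fibroblast and pericyte genes summed to 428 to 574 CPM in the controls against 733 to 876 in Cre-positive libraries. Yet 7 of them had a log2 fold change below 0 and 2 above it, so most of the list did not share the higher sum. Adgre1, the macrophage gene for F4/80, had 137.9 to 402.2 normalized counts against 28 to 56.4. No gene of either list was at 0 in all libraries, and the part of these cells in the fall of Ccl2, Ccl7 and Ccl8 was not tested.

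Ccl5, Ccl6 and Ccl9 varied widely between the 3 Cre-positive libraries. Ccl5, a T cell and monocyte attractant, had 4692.9, 4156.7, 4104.3 and 2417.2 normalized counts in the controls 46, 48, 75 and 77, against 7820.3, 1485.1 and 1636.0 in Cre-positive 45, 76 and 80. Cre-positive 45, the only Cre-positive library with a label number in the range 45 to 48, was the highest of all 7 libraries and the other 2 were the lowest. Over all libraries it did not pass (log2 fold change -0.48, limma adjusted p = 0.530), while without Cre-positive 45 the log2 fold change was -1.26 with an adjusted p of 0.00650. The T lineage list summed to 246, 421 and 108 CPM in Cre-positive 45, 76 and 80, and its part in the values of Ccl5 was not tested.

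Ccl9 had 1091.9, 1968.0, 1136.0 and 741.3 in the controls against 874.6, 3210.5 and 4163.6 in Cre-positive libraries. Ccl6, its neighbour on chromosome 11 and like it a ligand of CCR1, had 459.2, 1407.6, 587.4 and 251.2 against 421.1, 1612.3 and 2832.8. The order of the 7 libraries was the same for both genes, with Cre-positive 80 and 76 highest, then Cre-negative 48, and Cre-positive 45 and Cre-negative 77 lowest. Neither passed (log2 fold changes 0.97 and 1.16, limma adjusted p = 0.173 and 0.221), but both were called higher without Cre-positive 45. Both ligands have been described in thymic microfold-like cells. The list of 7 microfold genes summed to 640 to 888 CPM in the controls against 559 to 649 in Cre-positive libraries. Of these genes, 1 was called higher (Aif1) and 0 lower, beside 4.66% and 9.11% of all tested genes. Yet 5 of the 7 had a log2 fold change above 0 and 2 below it. Most of the list thus did not share the lower sum. The part of microfold-like cells in the values of Ccl6 and Ccl9 was not tested.

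**Figure D4:**
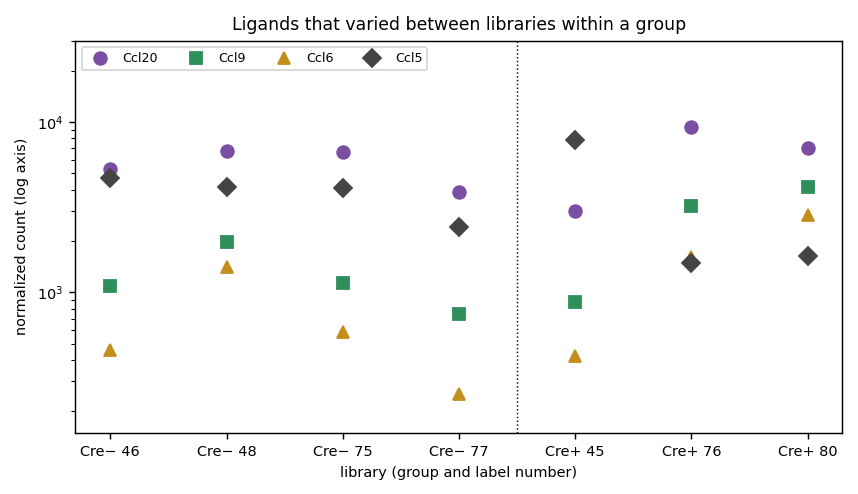
Normalized counts (log axis) of Ccl20, Ccl9, Ccl6 and Ccl5 in each library, named by group and label number. Cre-positive 45 is apart from 76 and 80 in all 4 genes: high in Ccl5 at 7820.3, and low in Ccl20, Ccl9 and Ccl6.

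Among the ligands of epithelial surfaces, Ccl28 and Cxcl17 fell, and Ccl27a did not pass. Ccl28 (chr13:119623819-119654359, plus strand), a mucosal ligand of CCR10, had 78.8, 68.0, 17.1 and 49.6 normalized counts in the controls against 6.3, 3.0 and 2.1 in Cre-positive libraries. Every Cre-positive library was close to the level of a few reads. The log2 fold change was -3.40 (95% interval -4.99 to -1.81, limma adjusted p = 0.00913), and the call was lost in limma-voom (adjusted p = 0.0657). Cxcl17 (chr7:25400053-25412886, minus strand), found in mucosal epithelia, had 191.9, 142.8, 226.1 and 174.7 against 85.7, 0.0 and 16.6. Cre-positive 45 again stood above the other 2, and the call in limma (adjusted p = 0.0259) was not made by edgeR (0.0895) or DESeq2 (0.208). It was also lost without any 1 of the 4 Cre-negative libraries (0.0558 to 0.0636), and the fitted log2 fold change of -3.99 was -5.44 without Cre-positive 45 and -2.22 without 76, beside -2.45 in edgeR and -2.43 in DESeq2.

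Ccl27a, the skin ligand of CCR10, had 2006.8 to 3076.4 in the controls against 2217.4 to 3634.2 in Cre-positive libraries (log2 fold change 0.06, 95% interval -0.38 to 0.50). An exon of it overlaps Il11ra1, and 69.2% of its 50-base stretches occur in other genes. Cxcl14, a ligand of skin and mucosa, had 19.7 to 36.9 against 14.0 to 16.6, which did not overlap and did not pass (limma adjusted p = 0.375). Of 9 genes of keratinocyte-like mimetic cells, 6 were called lower and 0 higher, beside 9.11% and 4.66% of all tested genes. The 9 genes summed to 223 to 607 CPM in the controls against 104 to 186 in Cre-positive libraries. Their part in the values of Ccl28 and Cxcl17 was not tested.

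Of the membrane-anchored ligands, Cx3cl1 fell and Cxcl16 did not pass. Cx3cl1 (chr8:94772009-94782427, plus strand), the ligand of CX3CR1 on monocytes, had 139.9, 171.4, 124.3 and 204.7 normalized counts in the controls 46, 48, 75 and 77, against 78.4, 24.0 and 10.4 in Cre-positive 45, 76 and 80. All Cre-positive values were lower, with Cre-positive 45 nearest to the other group. The log2 fold change was -2.48 (limma adjusted p = 0.0112), and -3.23 without Cre-positive 45 and -1.83 without 80. Cx3cl1 lies between Ccl22 and Ccl17 on chromosome 8, and of these 3 neighbours the outer pair differed as described above.

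Cxcl16, the ligand of CXCR6, had 617.2 to 917.1 against 478.7 to 782.7 (log2 fold change -0.26, 95% interval -0.74 to 0.21). It overlaps exons of Zmynd15 and shares 20.02% of its 50-base stretches with it. Zmynd15 had 99.3 to 225.6 against 214.3 to 421.1 normalized counts (adjusted p = 0.0572), so reads of the pair may have been counted under either name.

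Levels of different ligands are given per length of merged exons, which pools all annotated transcripts of a gene. That length was 7445 bases for Ccl25 and 960 for Ccl5, where the longest transcript had 2549 and 668. The order of the ligands therefore depends on the length used. In Cre-negative libraries Cxcl10 was highest at 423 ± 82.9 CPM per kb (SD, n = 4), followed by Ccl5 at 391 ± 98.3, Ccl20 at 388 ± 98.4 and Ccl8 at 322 ± 148, levels whose spreads overlap. In Cre-positive libraries Ccl20 (387 ± 199), Cxcl10 (337 ± 31.2) and Ccl5 (321 ± 315) were at the top (SD, n = 3), and Ccl8 was at 95.6 ± 50.3, below Ccl17 (165 ± 44.1), Cxcl1 (150 ± 20.1), Cxcl9 (143 ± 23.2) and Ccl19 (141 ± 37.0). Per length, Ccl19 in Cre-negative libraries was at 54.7 ± 11.1 and Xcl1 at 93.8 ± 31.1. All 44 genes together took 5279 ± 466 CPM in the controls (SD, n = 4) against 4214 ± 60.4 in Cre-positive libraries (SD, n = 3), without overlap (two-sided exact permutation p = 0.0571, the smallest that 4 against 3 can give). In normalized counts the totals were 54024 ± 4632 and 49693 ± 2103 and overlapped (exact permutation p = 0.171), so the lower total depends on the scale. The share of Ccl25 in the family total went from 19.4% to 12.2% and that of Cxcl9 from 6.32% to 10.2% between the group means.

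The 2 label number ranges (45 to 48, and 75 to 80) may or may not mark a batch, since the labels do not say. All 16 called ligands had the same sign within each range. For example, the log2 fold change in the lower and the upper range was 2.04 and 1.30 for Ccl19, 1.04 and 1.12 for Cxcl1, -1.98 and -3.83 for Ccl1, and -7.45 and -5.82 for Xcl1. Of the 17 not called, 8 did, and the opposite signs were those of Ccl20, Ccl27a, Ccl4, Ccl5, Ccl6, Ccl9, Cxcl10, Cxcl12 and Cxcl2. Within the lower range there is 1 Cre-positive library (45), so these values carry no test. In all called ligands but Ccl22 the groups did not overlap, which fixes the sign in any subset of libraries. Their same signs are therefore no check of the ranges.

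The receptors for these ligands were read at low levels in the sorted cells. Of 23 listed receptor genes (18 conventional and 5 atypical), 18 were tested, with 0 called higher and 2 lower, a share near the 9.11% of all tested genes called lower. Cxcr5, the CXCL13 receptor of B cells and follicular T cells, had 57.8, 63.0, 67.6 and 63.1 normalized counts in the controls against 8.4, 28 and 19.7 in Cre-positive libraries (log2 fold change -1.84, limma adjusted p = 0.0359). Ackr2, an atypical receptor that scavenges inflammatory CC ligands, had 41.9, 52.2, 35.1 and 27.9 against 14.6, 7.0 and 3.1 (-2.30, adjusted p = 0.0379). The groups did not overlap in either gene. Both calls were lost in edgeR, which called 0 receptors, and on leaving out any 1 of the 4 controls or Cre-positive 80. Of 9 endothelial genes, Flt1 was called lower, with sums of 56.8 to 75.9 against 34.9 to 44.8 CPM. The B cell gene Pax5 was called lower beside Cxcr5, and 8 B lineage genes summed to 72.9 to 110 against 64.7 to 130 CPM.

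Ccr7, the receptor for Ccl19 and Ccl21, was the receptor with most reads, at 436.6, 748.6, 318.0 and 204.7 against 477.5, 54.1 and 68.5 normalized counts. Cre-positive 45 was inside the Cre-negative range and the other 2 were far below it (limma adjusted p = 0.104). Ccl5, Ccl22 and Ccr7 had the same pattern among the 3 Cre-positive libraries, high in 45 and low in 76 and 80, a likeness noted after their values were seen. The pattern was not particular to these genes. Cre-positive 45 was also the highest of its group for Ccl25, Ccl8, Ccl2 and Ccl1, among others, though not for Ccl20, Ccl9 or Ccl6. Xcr1, the receptor for Xcl1, had 36.4 to 71.2 against 16.0 to 66.4 and did not pass (adjusted p = 0.548), and Ccr8, the receptor for Ccl1, was under the filter, with 0.0 to 10.9 normalized counts and none in Cre-positive libraries.

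**Figure D5:**
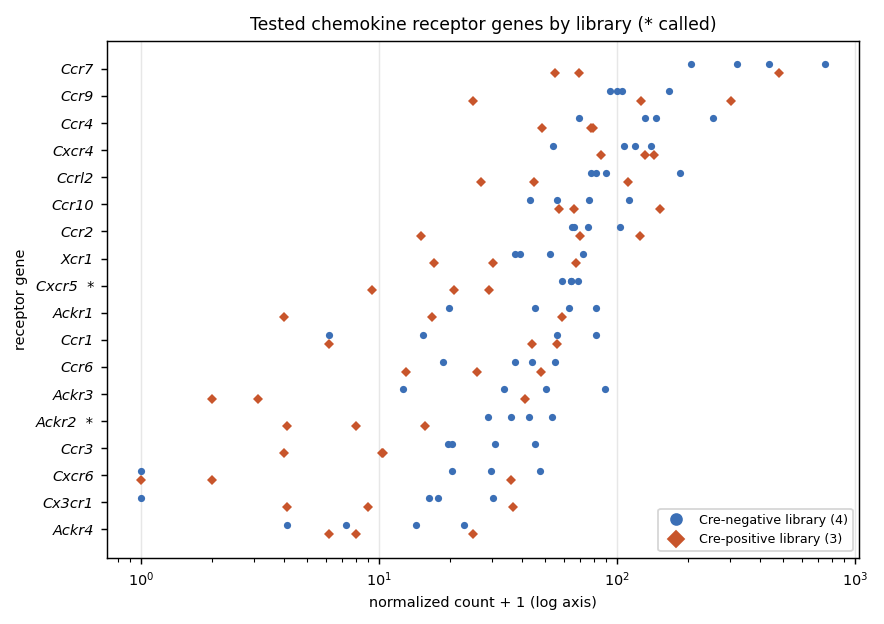
Normalized count + 1 (log axis) of the 18 tested receptor genes in Cre-negative (circles) and Cre-positive libraries (diamonds), with called genes starred. Cxcr5 and Ackr2 are the 2 called genes, and Ccr7 spreads from 54.1 to 748.6.

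Other genes of the pathway were followed in further lists, whose counts are to be read beside the 13.8% of all tested genes called in either direction. Of 17 G-protein signalling partners, Rgs2, which limits G-protein signals, was called higher (log2 fold change 0.99, limma adjusted p = 0.00680) and Gnai1, an inhibitory G-protein subunit, lower (-3.59, adjusted p = 0.00345). Of 15 proteases and heparan sulfate enzymes that trim or hold chemokines, 1 was called, the gelatinase Mmp9, which was higher (log2 fold change 3.36, limma adjusted p = 9.12e-07). Of 15 NF-kB pathway genes, the subunits Nfkb1 (-1.02, adjusted p = 0.00421) and Rel (-1.20, adjusted p = 0.00639) were lower and Tnfaip3, which restrains the pathway, was higher (1.02, adjusted p = 0.0137). The part of these genes in the calls of Cxcl1 and Cxcl3, both with a kB match, was not tested. Pf4, a platelet and megakaryocyte CXC ligand whose symbol lies outside the rule, was higher (431.1 to 628.4 against 894.5 to 2037.7 normalized counts, adjusted p = 0.00988), and Ppbp, of the same kind, did not pass (adjusted p = 0.767). The 5 platelet genes listed summed to 5.71 to 20.2 CPM in the controls against 3.25 to 4.22 in Cre-positive libraries.

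The authors' deposited table has 5 of the ligands at an adjusted p under 0.05 and higher in Cre-positive libraries and 10 lower, and 13 of the 16 ligands called here are among them. Ccl22, Cxcl17 and Ccl7 are not, Ccl7 having no adjusted p there, and Ccl9 and Cxcl5 are called in the authors' deposited table and not here.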

How the data were processed

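RNA of 7 sorted mTEC libraries was read by SMART-seq. Per the submitters' processing notes, STAR 2.7.9a aligned the reads and DESeq2 was used, with build GRCm39; neither the counting tool nor its strand setting is named. Of 52489 genes compared, 49995 (95.2%) have in the table the coordinates of GENCODE M21 on GRCm38, which is the build printed here. Per the file headers, the authors deposited normalized counts, a signal (read counts over a size factor for each library, to 1 decimal). They also deposited variance-stabilized log2 values, which were not used, a log2 fold change, the same change as a linear ratio or fold (not used), p-values, and GC percent per gene (not used). Dividing by the worth of 1 read, fixed through genes read in 1 library alone, gave whole reads for 100% of values within 0.0501 normalized counts. CPM are recovered reads scaled to the library total, and per-kb levels divide by the merged exon length of GENCODE M21. Intervals on reads cover counting error only, since no molecular identifiers are recorded.

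The 22878 genes that averaged 5 or more normalized counts (32658 were left out) entered limma, fitted with a trend in mean level to log2(normalized count + 1) over all 7 libraries, Cre genotype being the only term. On this scale the pseudocount draws changes of low genes towards 0, while a library at 0 can make a fitted value larger than that of a count model. Positive log2 values are higher in Cre-positive libraries. Every adjusted p is Benjamini-Hochberg adjusted over all genes tested and from limma unless another tool is named. Alternatives were edgeR, DESeq2 and limma-voom on recovered reads, scaling by library total or TMM, pseudocounts of 0.5 and 5, no filter or a mean of at least 20, a term for the label number range, a term for Y-linked reads, and leaving out each library. On simulated reads for this comparison, over 22773 genes, limma found 11 of 100 changes of 2-fold and 60 of 100 of 4-fold, and made 2 false calls. On the same reads edgeR found 7 and 59 of them and made 0 false calls. DESeq2 found 21 and 72 and made 43 false calls. Far fewer genes were changed there than the 3150 called in the data, which makes the adjusted p harder to pass. Differences of 2-fold can thus be missed at this size, but how often was not measured. Near-identical gene copies were assessed by 50-base stretches shared between GENCODE transcripts. No pair of libraries in a group agreed within sampling noise.

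The ligands and all gene lists were chosen with earlier results of these data known. Named are every called ligand, the ligands with thymic roles, the 5 with the highest mean, every called receptor, and up to 3 called genes of each pathway list. A few genes of the pathway lists are not reported here and are left out of the list counts and sums. A protein sequence comparison planned for the ligands was not made. Fits used limma 3.58.1 in R 4.3.3, with DESeq2 1.42.0 and edgeR 4.0.16 for the alternatives; tables and exact tests used pandas 2.3.3 and scipy 1.17.1 in Python 3.11.15.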

Additional observations from a re-analysis of the deposited data

Results flagged for a closer look

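In the Cre-negative group, Cre-negative 48 had 728.9 normalized counts of Cxcl3, while the other 3 libraries had 408.4 to 427.4. The gap to the next library was 0.941 of the range of the group, above the Dixon critical value for 4 samples, which chance passes in about 1 group in 20, and 33 ligands were looked at in this way. Without that library the log2 fold change of Cxcl3 was -0.98 (limma adjusted p = 0.0868) in place of -1.18. Cre-negative 48 is also the only library with Y-linked reads, and it had the most Ccl2, Ccl7, Cxcl5 and Cxcl15 of the group.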

How the results depend on the processing

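No paired analysis was possible because the labels give the 2 groups no shared replicate numbers. Over 18 alternatives, 6 of the 16 called ligands (Ccl1, Ccl19, Ccl8, Cx3cl1, Cxcl1 and Xcl1) were called in every one, and the other 10 were lost in at least 1. The ligands called higher numbered 2 with library total scaling, which moved the median of all genes from -0.10 to -0.29, and 2 to 5 with 1 library left out (2 without Cre-negative 46 or 77 or Cre-positive 80). Those called lower numbered 7 with the Y-linked term and 7 to 11 with 1 library left out (7 without Cre-negative 46 or 48). The Y-linked term fits Cre-negative 48 alone, so its log2 fold changes equal those without that library and it is no separate check. Library total scaling gave 14 lower, edgeR gave 3 higher and 9 lower, and DESeq2 gave 5 and 11. Receptors called lower numbered 3 in DESeq2, 1 with no filter, 0 with the Y-linked term, edgeR or limma-voom, and 0 to 2 with 1 library left out. Over all genes, 583 were called higher with library total scaling in place of 1066, and 600 to 1008 with 1 library left out. Called lower were 1235 in limma-voom in place of 2084, and 1315 to 1759 with 1 library left out. Of ligands that were not called, Cxcl10 (-0.26 to 0.0049 with 1 library left out), Ccl17 (-0.033 to 0.51) and Cxcl12 (-0.53 to 0.077) changed sign. So did Ccl20, which was at -0.12 with library total scaling and ran from -0.26 to 0.56 with 1 library left out, with -0.088, -0.26 and -0.056 without Cre-negative 77 and Cre-positive 76 and 80. The cause was not tested, except that leaving out a library leaves fewer samples. Ligands near the level of a few reads, such as Cxcl15 and Ccl28, are limited by depth.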
